A study of Mus musculus with 12 samples.

Results

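Nucleotide and one-carbon synthesis is followed here as a set of 32 genes that code for the enzymes of purine, pyrimidine and deoxynucleotide synthesis and of the folate cycle that feeds them. The genes were taken by name out of 21761 genes in the deposited table, and all 32 passed the filter on low counts that left 12049 genes for testing. RNA was sequenced from mouse spleen B cells that had been transferred into µMT hosts, a strain that lacks mature B cells of its own, and had then divided in response to lipopolysaccharide (LPS), a bacterial product that activates B cells.

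All groups share 1 design. The donor cells were B220+ CD43- spleen B cells of naive mice, marked with CFSE or CTV, dyes that dilute at each division, and rested overnight in the host before the LPS challenge. They were sorted on day 3 by the number of divisions. The groups are Div0, Div1, Div3 and Div5, Div8neg (at least 8 divisions, CD138-negative) and Div8pos (at least 8 divisions, CD138-positive, CD138 being the surface protein that marks plasmablasts). Each group holds 2 libraries, 1 from each of 2 hosts, numbered 196 and 197, so the 12 libraries come from 2 host animals. The sample records give female mice, an age of 8 weeks and the strain B6.SJL-Ptprca Pepcb/BoyJ, while the design text names C57/BL6J donors. Whether the strain in the sample records is that of the donors or of the hosts is not stated. The cells of all groups, Div0 included, saw the LPS-treated host, so Div0 is the undivided fraction and not an untreated control.

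Purine rings are assembled atom by atom on an activated ribose phosphate called PRPP, ending in inosine monophosphate (IMP), from which the adenine and guanine nucleotides branch off. Pyrimidine rings are made first and then joined to PRPP. Ribonucleotide reductase turns ribonucleotides into deoxynucleotides for DNA, and folate enzymes carry the single carbons, drawn mainly from serine, that enter the purine ring and thymidylate. Activated lymphocytes are known to depend on this synthesis, and drugs such as mycophenolate and leflunomide act on enzymes described here.

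Levels are given in the deposited unit of mRNA copies per cell, derived from synthetic RNAs added to lysates of 40000 sorted cells and scaled by gene length, so that levels of different genes can be compared. For each pair of values the first is host 196 and the second host 197. Differences were tested on 2 scales. The first is relative to all genes, on the raw counts with edgeR's quasi-likelihood test. The second is per cell, with limma on log2(copies per cell + 0.1), which understates changes of the lowest genes. A member is said to have risen or fallen on a scale where its p, adjusted by Benjamini-Hochberg over the 12049 genes, was under 0.05. Since each group has 2 libraries, p-values rest on the spread pooled over all 6 groups, and an exact permutation test of 2 against 2 libraries could not go below p = 0.33.

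Gene counts per library ranged from 11551585 to 14975133, and counts of single members from 93 to 10580. Total mRNA was 30490 ± 4360 copies per cell in Div0, 51390 ± 12100 in Div1, 48560 ± 7030 in Div3, 71520 ± 4990 in Div5, 100300 ± 4760 in Div8neg and 163000 ± 15600 in Div8pos (SD, n = 2 each). Host 197 had more mRNA per cell than host 196 in Div0, Div1, Div3 and Div8neg and less in Div5 and Div8pos, and the per-cell value of every gene in a library shares that library's 1 spike-in factor. Sdc1, which codes for CD138, stood at 43.4 and 36.0 copies per cell in Div8pos, against 0.289 and 0.519 in Div8neg. The summed level of 10 B cell markers was 199 to 232 copies per cell in Div8pos, against 655 to 691 in Div8neg, and that of 10 plasma cell markers was 1356 to 1510.0 in Div8pos, against 186 to 227 in Div8neg. All 10 B cell markers fell and all 10 plasma cell markers rose between these groups on both scales. Summed markers of T and NK cells stayed between 0.508 and 3.88 copies per cell in all libraries, and those of macrophages, monocytes and dendritic cells between 3.50 and 25.8. Neutrophil and mast cell markers summed to 1.04 to 17.1 copies per cell and were higher in host 197 than in host 196 in every group, with 17.1 against 1.25 in Div1. Erythroid and platelet markers summed to 0.911 to 13.6, higher in host 196 in every group, and stromal and endothelial markers to 1.98 to 14.96. The part of such differences in cell type in the results was not tested. In bulk samples, fewer cells of a type and less RNA per cell cannot be told apart.

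Relative to all genes, most members passed no test over the first divisions, and most rose step by step from Div3 onward. On this scale 5 of 32 members rose and 1 fell between Div1 and Div0, where 9.37% of all genes were called, 5.47% higher and 3.90% lower. Between Div3 and Div1, 2 fell, where 3.42% of all genes were called, 1.51% lower. Between Div5 and Div3, 24 rose and 1 fell, beside 26.5% of all genes called, 14.2% higher and 12.4% lower. Between Div8neg and Div5, 29 rose and 1 fell, beside 53.4% called, 26.8% higher and 26.6% lower. Between Div8pos and Div8neg, 22 rose and 3 fell, beside 72.0% called, 36.7% higher and 35.3% lower. The median log2 change of the members in these 5 steps was -0.02, 0.00, 0.31, 0.62 and 0.45, while that of all genes lay between -0.01 and 0.01. Over the whole course, 29 members rose and 1 fell in Div8neg against Div0 (median 0.89; 71.0% of all genes called, 35.3% higher and 35.7% lower), and the counts were the same in Div8pos against Div0 (median 1.44; 82.4% called, 40.2% higher and 42.2% lower).

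Total mRNA per cell grew over the same course. The median of all genes moved by 0.63, -0.07, 0.47, 0.41 and 0.49 on the log2 scale in the 5 steps, and that of the members by 0.70, -0.08, 0.84, 1.10 and 0.99. At the first division 31 members rose per cell, beside 77.1% of all genes called, 76.9% higher. Between Div3 and Div1 Impdh1 passed, lower, beside 0.498% of all genes called, 0.307% lower. Between Div5 and Div3, 30 rose (43.0% of all genes called, 42.6% higher). Between Div8neg and Div5, 30 rose (45.7% called, 42.2% higher), and between Div8pos and Div8neg, 28 rose (68.3% called, 52.0% higher). Against Div0, 31 members rose in Div8neg (90.0% called, 88.3% higher) and 31 in Div8pos (89.1% called, 82.4% higher), with medians of 2.53 and 3.59 beside 1.41 and 1.84 for all genes.

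Several of these counts rested on 1 library. Without the Div0 library of host 196, 3 of 32 members rose per cell at the first division, and without the Div1 library of host 197, 5 did. Of all genes, 7.18% and 9.90% rose in these cases. For Div5 against Div3, no member passed per cell without the Div3 library of host 196, although 25 had an unadjusted p under 0.05 in limma, and 8 passed without the Div5 library of host 196, where 2.24% and 6.71% of all genes rose. Relative to all genes, calls for Div5 against Div3 were lost without the Div3 library of host 196 and without the Div5 library of host 197. The calls lost in either case were those of Adsl, Cad, Cmpk1, Ctps, Dck, Gart, Gmps, Impdh2, Nme2, Paics, Shmt1 and Shmt2. Relative to all genes, most calls for Div8neg against Div5 and for Div8pos against Div8neg held whichever of the 12 libraries was left out. Per cell, more calls were lost in these 2 comparisons than on the relative scale.

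As a sum, the 32 genes took up 0.331 and 0.344% of all mRNA in Div0, 0.328 and 0.364% in Div1, 0.3333 and 0.366% in Div3, 0.421 and 0.439% in Div5, 0.609 and 0.603% in Div8neg and 0.829 and 0.813% in Div8pos. The share was thus flat up to Div3, where the libraries of Div0, Div1 and Div3 overlap, and the values of Div5, Div8neg and Div8pos do not overlap each other or the earlier groups. In copies the sum was 1339 ± 146 per cell in Div8pos, 608 ± 25.0 in Div8neg and 103 ± 17.5 in Div0 (SD, n = 2 each). The level was highest in Div8pos for 31 members and in Div1 for Ctps2. The share of mRNA by role is plotted for each library.

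**Figure D1:**
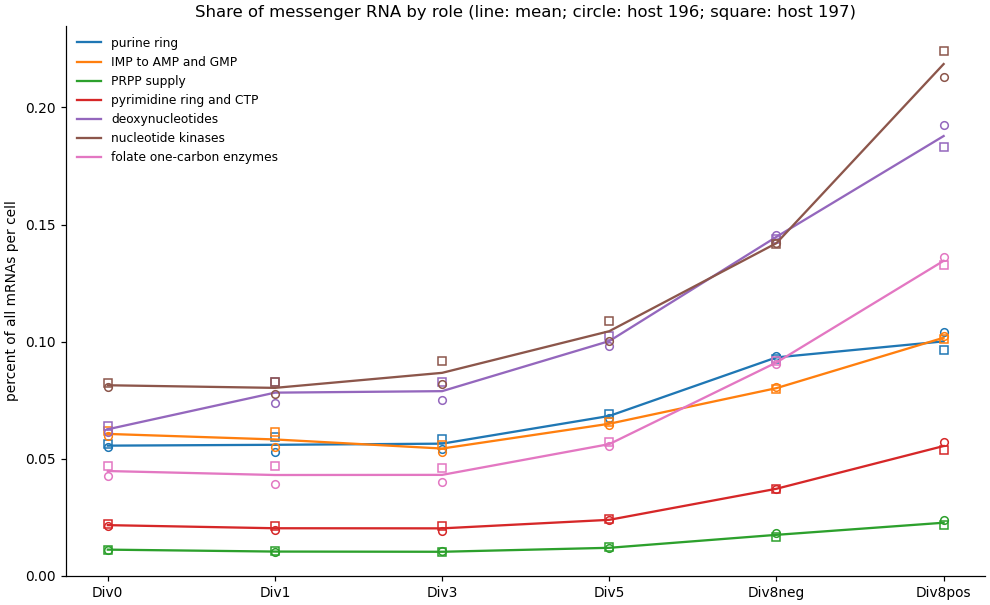
Summed share of all mRNA copies per cell (percent, y axis) for the 7 roles in the 6 groups (x axis); lines join the means of 2 hosts, circles are host 196 and squares host 197. Every role is nearly flat from Div0 to Div3 except deoxynucleotides, which step up at Div1, and all roles are highest in Div8pos.

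The purine ring enzymes rose together in Div8neg against Div5 and parted in Div8pos against Div8neg. The ring is started by Ppat, the amidotransferase of the first committed step, and continued by the trifunctional Gart, by Pfas and by the bifunctional Paics; Adsl removes a fumarate and Atic closes the ring with a formyl group from folate. Ppat and Paics lie head to head. On GRCm38.p6 (RefSeq), the annotated start sites of these genes are on opposite strands and 276 bases apart, with the first bases of the transcripts overlapping. Their promoter windows, from 250 bases before to 50 after the start, are shown because the starts are so close and the levels of the genes changed by different amounts. The capitals mark matches, on either strand, to an E-box (CACGTG, the site letters of MYC and related factors), to the E2F core letters TTCCCGC or TTGGCGC or TTCGCGC, to CCAAT, or to TGATGCA, core letters of amino acid response elements.
Ppat (chr5:76951529-76951828, minus strand): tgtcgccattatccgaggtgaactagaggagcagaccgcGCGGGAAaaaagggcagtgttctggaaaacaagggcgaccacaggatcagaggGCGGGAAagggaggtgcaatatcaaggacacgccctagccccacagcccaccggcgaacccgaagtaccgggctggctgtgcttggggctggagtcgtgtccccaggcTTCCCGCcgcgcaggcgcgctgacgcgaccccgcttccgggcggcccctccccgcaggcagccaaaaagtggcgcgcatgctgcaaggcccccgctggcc
Paics (chr5:76951052-76951351, plus strand): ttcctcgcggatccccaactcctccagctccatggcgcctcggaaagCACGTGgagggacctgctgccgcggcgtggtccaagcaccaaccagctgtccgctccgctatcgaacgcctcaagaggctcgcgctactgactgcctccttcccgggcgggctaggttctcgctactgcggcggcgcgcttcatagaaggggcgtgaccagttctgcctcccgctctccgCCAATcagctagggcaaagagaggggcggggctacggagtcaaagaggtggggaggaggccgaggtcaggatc
The window of Ppat holds 3 E2F core matches and that of Paics an E-box and a CCAAT. Ppat stood at 0.957 and 1.18 copies per cell in Div0, 3.11 and 2.94 in Div5, 7.05 and 7.31 in Div8neg and 14.8 and 12.5 in Div8pos. Paics stood at 5.20 and 6.35 in Div0, 18.5 and 17.5 in Div5, 29.9 and 32.1 in Div8neg and 51.5 and 42.9 in Div8pos. Paics was the more abundant in every library, by a ratio of 3.47 and 3.42 in Div8pos, against 4.24 and 4.39 in Div8neg and 5.44 and 5.37 in Div0, and the Div8pos and Div8neg ratios lie below those of all earlier groups. Since the genes overlap and the use of strand in counting is not given in the sources used here, reads from the overlap cannot be assigned with certainty.

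All 6 ring enzymes rose in Div8neg against Div5 relative to all genes, from Paics (log2 fold change 0.30) and Adsl (0.32) at the low end to Ppat at the high end (log2 fold change 0.76, SE 0.06, adjusted p = 8.3e-08). Of the 6, 4 rose in Div8pos against Div8neg. Pfas led (log2 fold change 0.55, SE 0.07, adjusted p = 2.42e-06), with 12.2 and 10.2 copies per cell in Div8pos, against 5.07 and 5.40 in Div8neg. Gart was at 46.5 and 35.6 copies per cell in Div8pos, against 18.8 and 19.4 in Div8neg (log2 fold change 0.55, SE 0.09, adjusted p = 2.76e-05), and Ppat and Atic rose by 0.38 and 0.25. Atic lost its call without the Div8pos library of host 196. Paics and Adsl did not pass on this scale, with 302 ± 13.7 and 146 ± 7.15 CPM (counts scaled to the library total) in Div8pos, against 291 ± 2.31 and 139 ± 4.48 in Div8neg (SD, n = 2 each). Per cell all 6 rose in this step, and Paics and Adsl, with log2 changes of 0.60 and 0.61, were near the median of all genes. Per cell, the calls of Paics and Adsl were lost without either Div8neg library, without the Div8pos library of host 196 and with no filter on low values, and that of Atic without the Div8pos library of host 196. The ring enzymes are drawn with the other members in the plot of copies per cell.

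**Figure D2:**
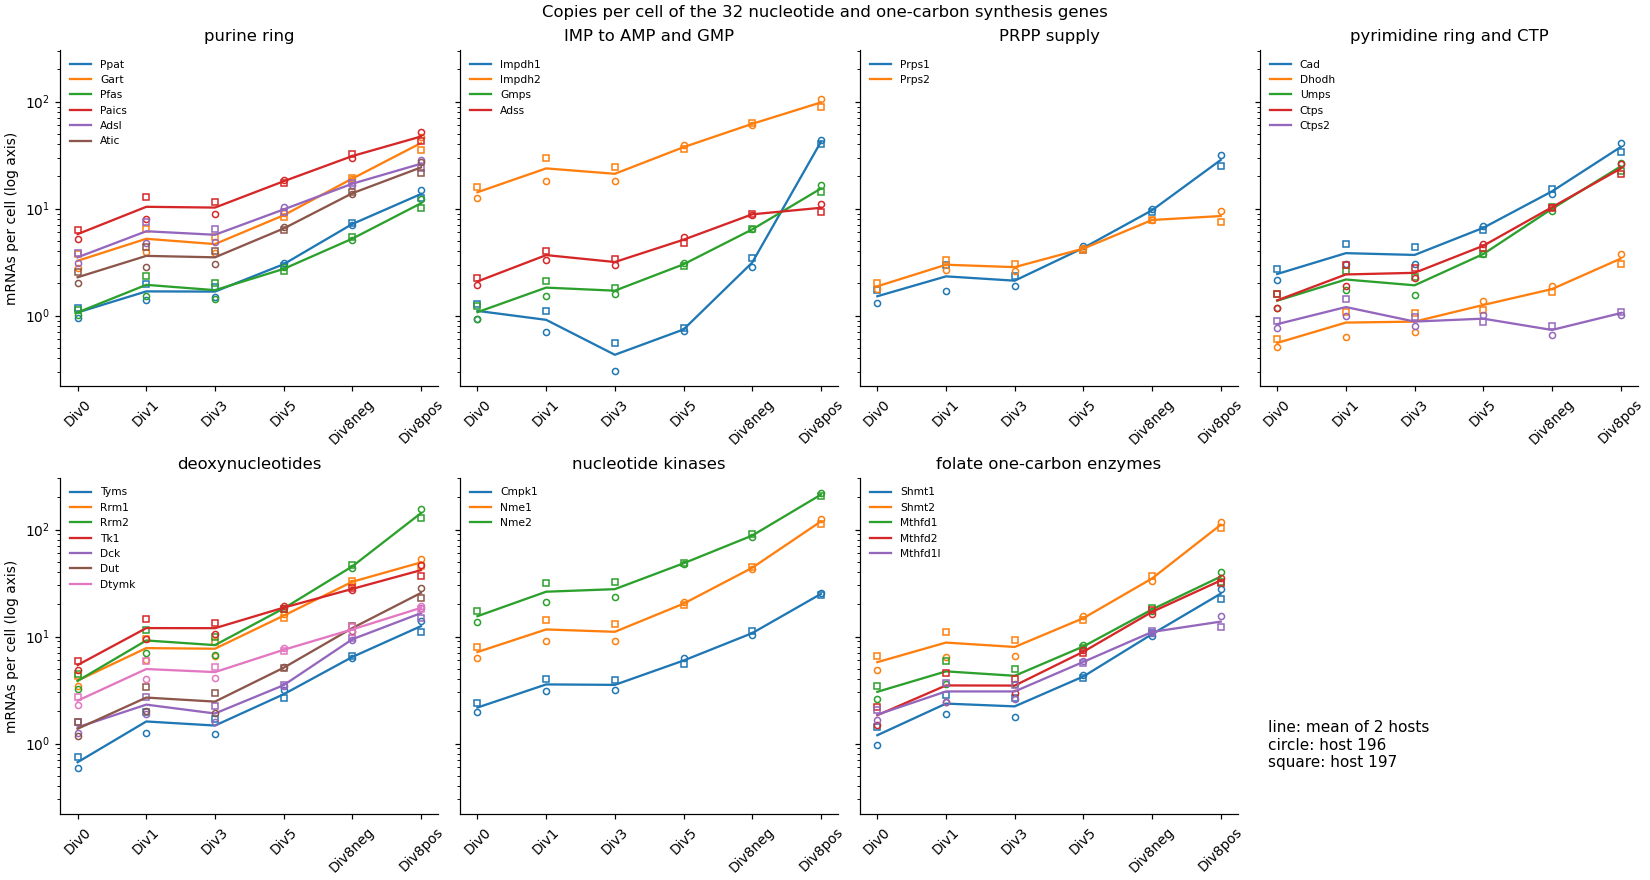
mRNA copies per cell (log axis, y) of each of the 32 members in the 6 groups (x axis), 1 panel per role; lines are means of 2 hosts, circles host 196 and squares host 197. Most members lie flat between Div1 and Div3 and climb from Div3 to Div8pos, while Impdh1 dips at Div3 before its steep rise and Ctps2 stays near 1 copy per cell throughout.

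The guanine branch held the widest change of the set. IMP dehydrogenase, the rate-limiting enzyme of guanine nucleotide synthesis and the target of mycophenolate, is coded by Impdh1 and Impdh2. Impdh1 stood at 0.937 and 1.28 copies per cell in Div0, 0.710 and 1.12 in Div1, 0.303 and 0.558 in Div3, 0.719 and 0.765 in Div5, 2.82 and 3.44 in Div8neg and 43.9 and 40.1 in Div8pos. The Div8pos libraries are more than 10 times above all others, and the Div3 libraries are the lowest. Impdh2 stood at 12.5 and 15.96 copies per cell in Div0, 18.1 and 24.2 in Div3, 39.0 and 36.1 in Div5, 60.2 and 63.8 in Div8neg and 107 and 89.8 in Div8pos, and was the more abundant of the pair in every library.

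Impdh1 fell relative to all genes in Div1 against Div0 (log2 fold change -1.02, SE 0.12, adjusted p = 6.19e-05) and again in Div3 against Div1 (log2 fold change -0.99, SE 0.15, adjusted p = 0.00139). Per cell the change at the first division was -0.27 and did not pass (adjusted p = 0.28), and it turned to 0.02 when the Div1 sample of host 196 was left out. The second fall passed per cell as well (log2 fold change -0.95, SE 0.23, adjusted p = 0.0243), but not when the Div3 sample of host 196 or the Div1 sample of host 197 was left out. Impdh1 then rose in Div8neg against Div5 (log2 fold change 1.58, SE 0.14, adjusted p = 2.21e-07), to 32.4 ± 2.66 CPM, against 10.8 ± 1.32 CPM in Div5 and 36.5 ± 3.52 CPM in Div0 (SD, n = 2 each), and the difference between Div8neg and Div0 did not pass (log2 fold change -0.17, adjusted p = 0.179). In Div8pos against Div8neg it rose 9.22-fold relative to all genes (log2 fold change 3.20, SE 0.10, adjusted p = 1.1e-13) and by 3.71 per cell on the log2 scale. Impdh2, relative to all genes, rose by 0.30 and 0.24 in the steps to Div5 and Div8neg; in Div8pos against Div8neg its change of 0.11 did not pass (SE 0.07, adjusted p = 0.138). The call for Impdh2 in Div8neg against Div5 was lost without the Div5 or the Div8neg library of host 196.

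The ratio of Impdh2 to Impdh1 within a library does not depend on scaling. It was 13.3 and 12.5 in Div0, 25.4 and 26.4 in Div1, 59.6 and 43.4 in Div3, 54.2 and 47.1 in Div5, 21.4 and 18.5 in Div8neg and 2.43 and 2.24 in Div8pos. It thus widened over the first divisions and closed in the Div8 groups, with the Div8pos values below every other library. The start regions of both genes are shown because the genes code for the same activity and their levels went separate ways. RefSeq gives 2 starts for Impdh1.
Impdh1 (chr6:29216315-29216614, minus strand): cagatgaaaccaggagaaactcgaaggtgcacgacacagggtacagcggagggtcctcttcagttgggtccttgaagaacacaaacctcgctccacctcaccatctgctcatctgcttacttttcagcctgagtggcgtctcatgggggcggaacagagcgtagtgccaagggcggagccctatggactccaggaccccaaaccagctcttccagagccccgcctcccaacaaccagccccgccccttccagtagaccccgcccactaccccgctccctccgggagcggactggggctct
Impdh1 (chr6:29212248-29212547, minus strand): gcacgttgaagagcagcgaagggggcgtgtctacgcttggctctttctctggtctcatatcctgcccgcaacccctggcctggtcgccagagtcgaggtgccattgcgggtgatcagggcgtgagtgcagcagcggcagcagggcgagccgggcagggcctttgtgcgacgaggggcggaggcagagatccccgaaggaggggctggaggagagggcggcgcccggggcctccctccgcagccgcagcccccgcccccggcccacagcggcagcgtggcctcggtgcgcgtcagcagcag
Impdh2 (chr9:108560186-108560485, plus strand): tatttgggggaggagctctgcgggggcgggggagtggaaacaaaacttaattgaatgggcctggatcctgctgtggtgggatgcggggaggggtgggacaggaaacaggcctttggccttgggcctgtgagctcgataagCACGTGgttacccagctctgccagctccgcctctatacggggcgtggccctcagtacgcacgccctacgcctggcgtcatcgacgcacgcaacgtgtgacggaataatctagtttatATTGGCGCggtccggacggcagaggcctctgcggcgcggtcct
In both Impdh1 windows none of the 4 motifs was found, and the Impdh2 window holds an E-box and an E2F core match that overlaps a CCAAT on the other strand.

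The other branch enzymes split as well in the last step. Gmps, which aminates xanthosine monophosphate to GMP, had 16.5 and 14.3 copies per cell in Div8pos, against 6.39 and 6.39 in Div8neg, and rose relative to all genes (log2 fold change 0.72, SE 0.06, adjusted p = 4.27e-08). Adss, which starts the adenine branch, had 11.0 and 9.39 copies per cell in Div8pos, against 8.80 and 8.89 in Div8neg. Relative to all genes it fell (log2 fold change -0.35, SE 0.07, adjusted p = 0.000373), while per cell its change was 0.20 (adjusted p = 0.431). On the way to Div8neg both had risen, Gmps by 0.60 and Adss by 0.31 against Div5 relative to all genes.

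PRPP, which every ring pathway consumes, is made by the synthetases Prps1 and Prps2, both on the X chromosome. Prps1 stood at 1.31 and 1.73 copies per cell in Div0, 4.47 and 4.11 in Div5, 9.92 and 9.39 in Div8neg and 31.8 and 25.2 in Div8pos. Prps2 stood at 1.75 and 2.00 in Div0, 4.33 and 4.13 in Div5, 7.77 and 7.89 in Div8neg and 9.52 and 7.53 in Div8pos, so that its Div8pos and Div8neg libraries overlap. The order of the pair turned over the course, from more Prps2 in all libraries of Div0, Div1 and Div3 to more Prps1 in those of Div8neg and Div8pos. The ratio of Prps1 to Prps2 was 0.745 and 0.862 in Div0, 1.03 and 0.994 in Div5, 1.28 and 1.19 in Div8neg and 3.34 and 3.35 in Div8pos. In Div8pos against Div8neg, relative to all genes, Prps1 rose (log2 fold change 1.00, SE 0.09, adjusted p = 2.77e-08) and Prps2 fell (log2 fold change -0.43, SE 0.07, adjusted p = 7.76e-05). Per cell Prps1 rose by 1.54, and the change of Prps2 was 0.11 and did not pass (adjusted p = 0.661). The windows of this pair are shown for the same reason as those of the IMP dehydrogenases.
Prps1 (chrX:140456353-140456652, plus strand): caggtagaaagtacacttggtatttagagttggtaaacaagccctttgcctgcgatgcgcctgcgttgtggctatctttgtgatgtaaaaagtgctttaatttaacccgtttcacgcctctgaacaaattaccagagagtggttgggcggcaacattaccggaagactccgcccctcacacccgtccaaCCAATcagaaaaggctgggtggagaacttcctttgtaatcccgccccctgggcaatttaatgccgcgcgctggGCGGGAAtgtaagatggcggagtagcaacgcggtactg
Prps2 (chrX:167382700-167382999, minus strand): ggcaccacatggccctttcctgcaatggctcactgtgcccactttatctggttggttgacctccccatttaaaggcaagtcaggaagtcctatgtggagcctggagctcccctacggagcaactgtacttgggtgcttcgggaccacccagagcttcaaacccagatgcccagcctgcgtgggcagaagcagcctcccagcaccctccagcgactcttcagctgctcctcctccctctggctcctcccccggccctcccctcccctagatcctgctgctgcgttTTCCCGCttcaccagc
Each window holds 1 E2F core match, and that of Prps1 also a CCAAT.

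Over all members, 30 of the 32 genes had at least 1 window in the RefSeq table, 36 windows in all. An E-box was found in 7 of the 36 (19.4%), against 10.2% of the 11626 windows of genes with a mean of at least 10 counts here and 7.15% of all 32851 windows. An E2F core match was found in 11 (30.6%), against 14.6% and 8.07%. CCAAT was found in 12 (33.3%), against 38.2% and 37.4%, and TGATGCA in none, against 1.98% and 3.15%. These are matches of letters and not binding sites, and windows of 1 gene can overlap. Atic, Dtymk and Impdh2 were the genes with E-box, E2F core and CCAAT matches in the same window.

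**Figure D3:**
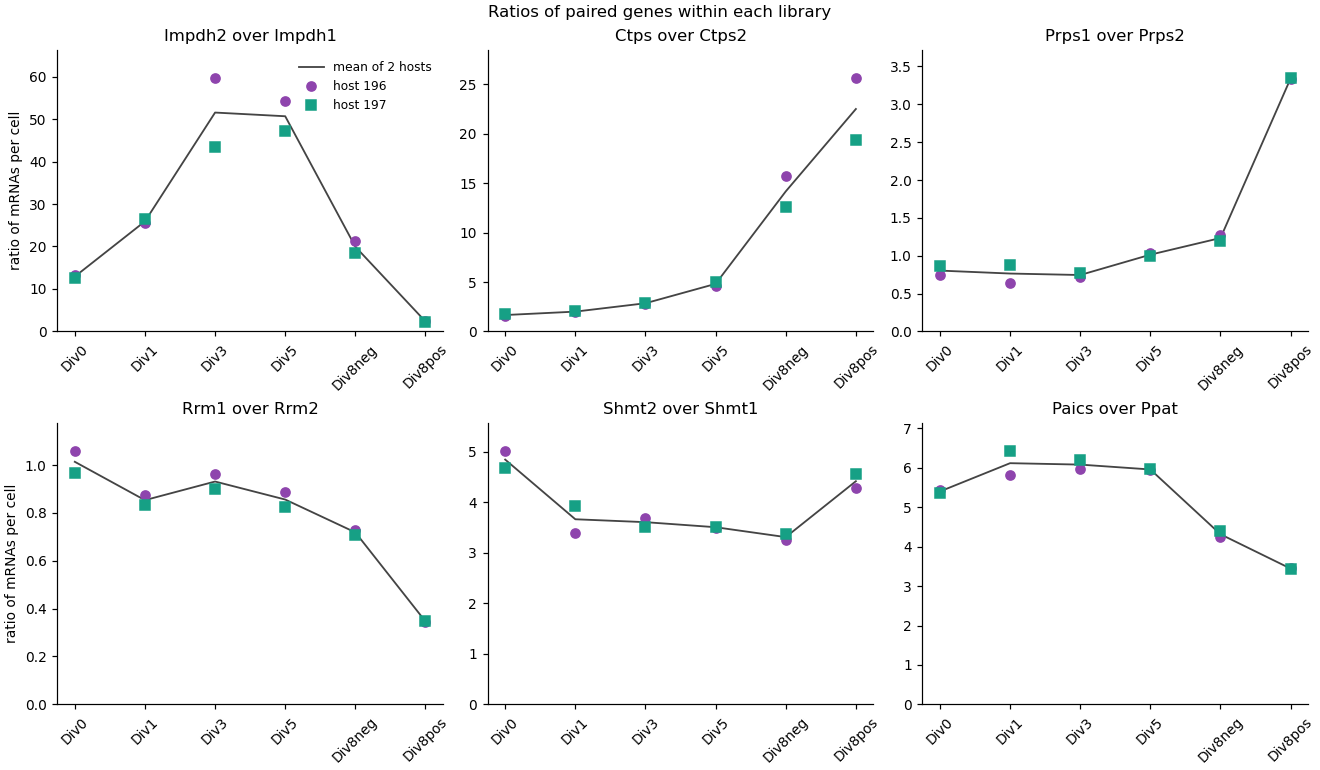
Ratio of mRNA copies per cell of 6 gene pairs (y axis, from 0) in the 6 groups (x axis); circles are host 196, squares host 197 and lines the means. Impdh2 over Impdh1 peaks at Div3 and Div5 and is lowest in Div8pos, Ctps over Ctps2 and Prps1 over Prps2 are highest in Div8pos, and Rrm1 over Rrm2 and Paics over Ppat are lowest there.

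Pyrimidine synthesis rose through its ring and CTP enzymes, with Dhodh late and Ctps2 apart. Cad joins the first steps of the ring in 1 protein, Dhodh, the mitochondrial target of leflunomide, oxidises dihydroorotate, Umps forms UMP, and Ctps and Ctps2 are the CTP synthases. Cad stood at 2.15 and 2.75 copies per cell in Div0, 6.91 and 6.31 in Div5, 13.7 and 15.3 in Div8neg and 41.4 and 33.8 in Div8pos. Umps stood at 1.18 and 1.58 in Div0, 3.76 and 3.76 in Div5, 9.50 and 10.4 in Div8neg and 26.8 and 22.7 in Div8pos. For both genes no library of a later group overlaps one of an earlier group from Div3 on. Relative to all genes, Cad rose by 0.31, 0.65 and 0.83 in the steps to Div5, Div8neg and Div8pos, the last with SE 0.07 and adjusted p = 2.14e-08 in edgeR's test. Umps rose by 0.44, 0.92 and 0.77 in the same steps.

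Dhodh, at 3.75 and 3.06 copies per cell in Div8pos, against 1.87 and 1.66 in Div8neg and 0.509 and 0.602 in Div0, was among the lowest members. Its share of counts was 28.9 ± 4.11 CPM in Div8neg, 28.5 ± 1.63 CPM in Div5 and 28.9 ± 0.153 CPM in Div0, and the steps up to Div8neg did not pass relative to all genes. It rose in Div8pos against Div8neg (log2 fold change 0.39, SE 0.12, adjusted p = 0.00706), a call that was lost without the Div8pos library of host 196 or the Div8neg library of host 197.

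The CTP synthases went opposite ways relative to all genes. Ctps rose from Div3 on, by 0.30, 0.71 and 0.64 in the 3 late steps, and stood at 26.2 and 21.1 copies per cell in Div8pos, against 10.4 and 10.2 in Div8neg and 1.17 and 1.61 in Div0. On the relative scale Ctps2 fell at each step from Div3 to Div8neg, by 0.35 to Div3, 0.45 to Div5 and 0.84 to Div8neg in log2. The call at Div3 was lost when any 1 of the Div3 and Div1 samples was left out. Its copies per cell in Div5, 1.01 and 0.863, overlapped those in Div3, 0.793 and 0.966. Ctps2 was 3.64-fold lower in Div8neg than in Div0 relative to all genes (log2 fold change -1.86, SE 0.09, adjusted p = 4.76e-11). Per cell its change did not pass, at 0.661 and 0.808 copies in Div8neg, against 0.765 and 0.900 in Div0, a log2 change of -0.16 (limma, adjusted p = 0.484), and the per-cell change in Div8pos against Div0 was 0.31 (adjusted p = 0.174). Ctps2 was the member whose copies stayed nearest to their starting level while total mRNA grew. The ratio of Ctps to Ctps2 was 1.53 and 1.79 in Div0, 2.82 and 2.88 in Div3, 4.62 and 5.00 in Div5, 15.7 and 12.6 in Div8neg and 25.6 and 19.4 in Div8pos.

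Genes of deoxynucleotide supply were the members that rose at the first division relative to all genes. Tyms, which makes thymidylate, stood at 1.25 and 1.97 copies per cell in Div1, against 0.589 and 0.749 in Div0 (log2 fold change 0.51, SE 0.09, adjusted p = 0.00155 relative to all genes). Rrm2, the small subunit of ribonucleotide reductase, whose level is known to follow S phase, stood at 6.97 and 11.4 in Div1, against 3.23 and 4.46 in Div0 (log2 fold change 0.50, SE 0.09, adjusted p = 0.00216). Tk1, the thymidine kinase of S phase, stood at 9.42 and 14.6 in Div1, against 4.86 and 5.96 in Div0 (log2 fold change 0.39, SE 0.07, adjusted p = 0.0016). In each of the 3 genes both Div1 libraries lie above both Div0 libraries. Rrm1, the large reductase subunit, rose by 0.25 and Dtymk, which phosphorylates thymidylate, by 0.23 relative to all genes. The Rrm1 call was lost when host 196's Div0 or host 197's Div1 sample was left out, and the Dtymk call without any 1 of the 4 libraries compared. Dut, which clears dUTP, and Dck, the deoxycytidine kinase, did not pass, at 74.4 ± 7.95 and 51.7 ± 1.40 CPM in Div1, against 64.5 ± 5.69 and 53.4 ± 1.97 CPM in Div0 (SD, n = 2 each). Of the 25 members outside this role, Impdh1 alone was called at the first division, lower. Per cell the 3 genes that kept their call whichever library was left out were Rrm2, Tk1 and Tyms (log2 changes 1.21, 1.11 and 1.13, against 0.63 for the median gene).

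From Div3 on these genes took separate courses. Tk1 had the step at Div1 and then no further call relative to all genes, with 129 ± 1.71 CPM in Div3, 138 ± 4.19 in Div5, 148 ± 5.86 in Div8neg and 150.5 ± 12.9 in Div8pos. Dck rose most in Div8neg against Div5 (log2 fold change 0.94, SE 0.08, adjusted p = 1.77e-07), to 9.22 and 9.63 copies per cell, against 3.47 and 3.54 in Div5. Its smaller rise in Div8pos against Div8neg (0.26, adjusted p = 0.00487) was lost without the Div8pos library of host 196. Tyms and Dut rose in all 3 late steps, Tyms by 0.44, 0.68 and 0.40 and Dut by 0.53, 0.74 and 0.54. Dtymk was called in Div8neg against Div5 alone among the late steps (0.15, adjusted p = 0.048), and that call was lost with any 1 of 10 libraries left out.

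The reductase subunits came apart in the CD138-positive cells. Rrm2 stood at 18.5 and 18.1 copies per cell in Div5, 43.8 and 46.7 in Div8neg and 155 and 129.5 in Div8pos. Rrm1 stood at 16.4 and 14.9 in Div5, 31.9 and 33.1 in Div8neg and 53.2 and 45.4 in Div8pos. In Div8pos against Div8neg, relative to all genes, Rrm2 rose (log2 fold change 1.10, SE 0.08, adjusted p = 6.73e-09), while the change of Rrm1 was 0.05 (SE 0.06, adjusted p = 0.472) and took the other sign, -0.04, with library totals in place of TMM factors. Per cell both rose, Rrm2 by 1.65 and Rrm1 by 0.60, near the median gene. The Rrm1 call was lost without either Div8neg library or without the Div8pos library of host 196. The ratio of Rrm1 to Rrm2 was 1.06 and 0.969 in Div0, 0.964 and 0.899 in Div3, 0.888 and 0.824 in Div5, 0.728 and 0.710 in Div8neg and 0.343 and 0.350 in Div8pos. The Div8pos ratios lie below those of all other libraries. Over the whole course Rrm2 rose 7.96-fold in Div8pos against Div0 relative to all genes, beside 8.19-fold for Impdh1; the other 30 members lay between 0.272-fold (Ctps2) and 4.54-fold (Shmt1).

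**Figure D4:**
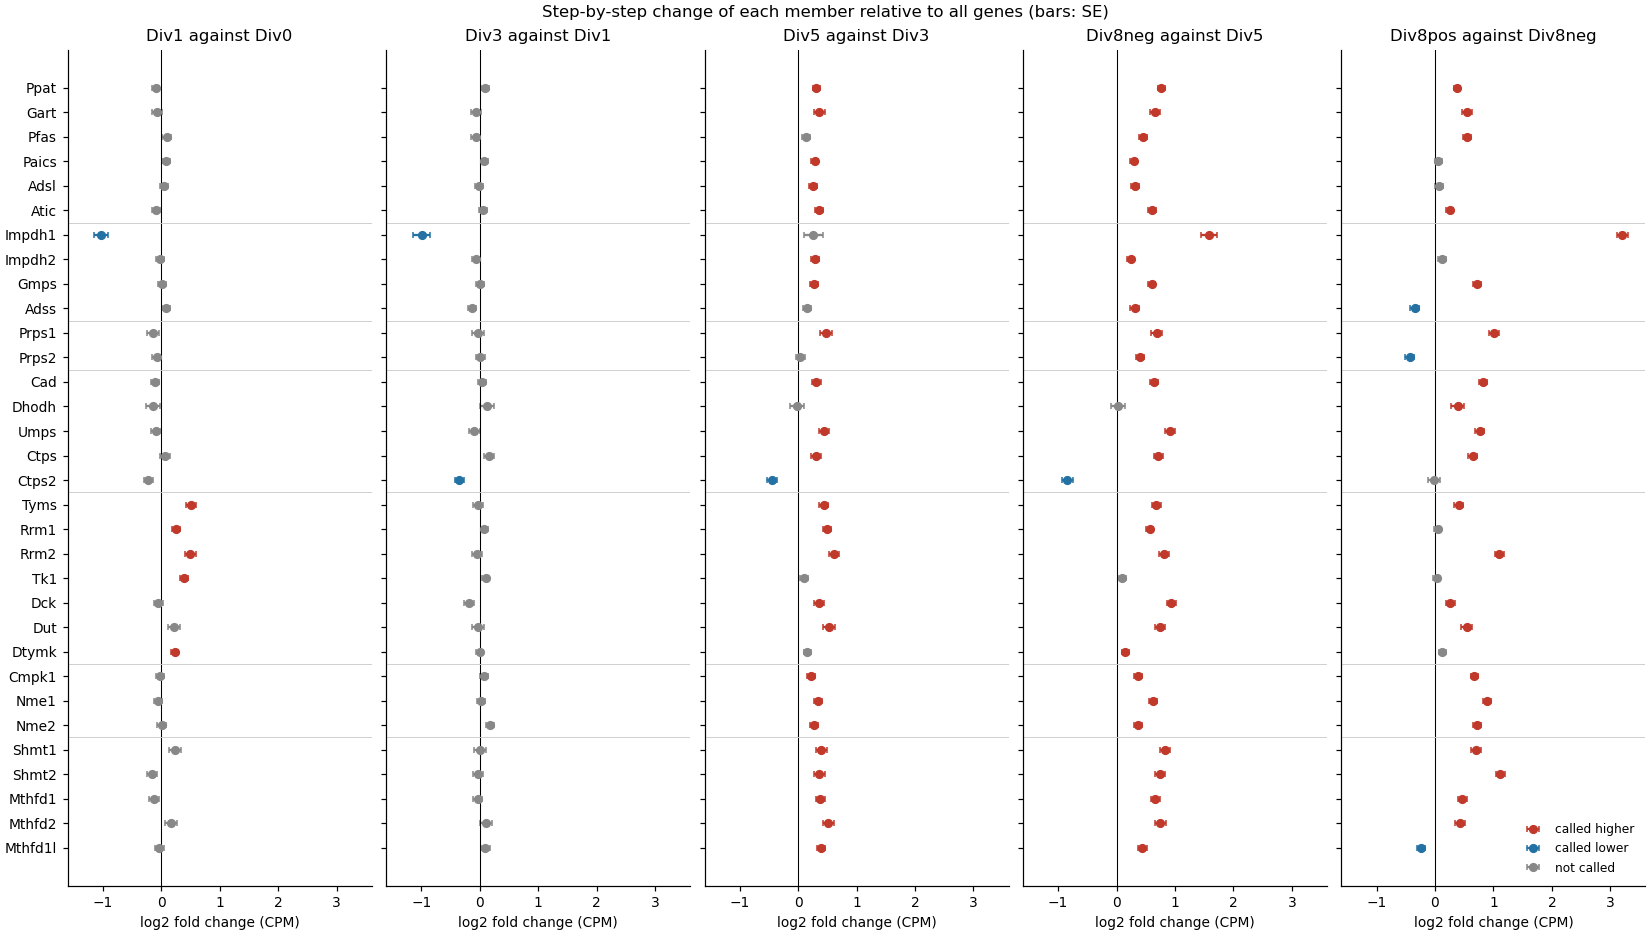
log2 fold change of counts relative to all genes (x axis, bars are SE) for each of the 32 members (y axis, grouped by role) in the 5 successive comparisons, red where called higher, blue where called lower and grey where not called. Calls are few in the first 2 panels, where deoxynucleotide genes are the red ones, and Impdh1 at 3.20 is the farthest point of the last panel.

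The 3 nucleotide kinases, among them the most abundant member Nme2, rose in each late step relative to all genes. Cmpk1 phosphorylates CMP and UMP, and Nme1 and Nme2 are nucleoside diphosphate kinases that make the triphosphates. Nme2 stood at 13.7 and 17.3 copies per cell in Div0, 47.9 and 48.7 in Div5, 84.5 and 91.1 in Div8neg and 219 and 204 in Div8pos, the highest level among the members in every library. Nme1 stood at 6.34 and 7.99 in Div0, 21.0 and 19.6 in Div5, 43.1 and 44.7 in Div8neg and 126 and 112 in Div8pos. No library of Div8pos, Div8neg or Div5 overlaps another of these groups for either gene. In Div8pos against Div8neg, relative to all genes, Nme1 rose by 0.89, Nme2 by 0.72 and Cmpk1 by 0.67 (edgeR, adjusted p = 6.31e-09, 7.38e-08 and 4.89e-08). The Cmpk1 call at Div5 was lost without any 1 of the 4 libraries compared. Nme1 and Nme2 are related neighbours, and Prps1 and Prps2 are related genes. The split of reads within each pair is uncertain and was not tested.

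The folate enzymes rose in both compartments, with the mitochondrial Shmt2 leading in Div8pos. Shmt1 in the cytosol and Shmt2 in mitochondria take a carbon from serine, Mthfd2 and Mthfd1l pass the mitochondrial carbon on to formate, and Mthfd1 returns it to folate in the cytosol. Shmt2 stood at 4.90 and 6.62 copies per cell in Div0, 15.4 and 14.3 in Div5, 33.1 and 36.6 in Div8neg and 119 and 103 in Div8pos. Shmt1 stood at 0.977 and 1.42 in Div0, 4.40 and 4.07 in Div5, 10.2 and 10.9 in Div8neg and 27.8 and 22.6 in Div8pos, so Shmt2 was the more abundant in every library. Both rose in Div8pos against Div8neg relative to all genes, Shmt2 by 1.12 (SE 0.08, adjusted p = 5.15e-09) and Shmt1 by 0.70 (SE 0.08, adjusted p = 1.22e-06). The ratio of Shmt2 to Shmt1 was 5.02 and 4.68 in Div0, 3.50 and 3.51 in Div5, 3.25 and 3.37 in Div8neg and 4.28 and 4.56 in Div8pos, with the middle groups lowest.

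The 3 Mthfd genes differed in the last step. Mthfd1l rose up to Div8neg (by 0.39 to Div5 and 0.44 to Div8neg) and then fell relative to all genes in Div8pos against Div8neg (log2 fold change -0.23, SE 0.07, adjusted p = 0.00712). That call was lost without the Div8neg library of host 196 or the Div8pos library of host 197. Per cell the change of Mthfd1l did not pass, with 15.4 and 12.2 copies in Div8pos, against 10.8 and 11.3 in Div8neg (log2 change 0.31, adjusted p = 0.218). Mthfd1 and Mthfd2 rose in the same step by 0.47 and 0.43 relative to all genes. Mthfd2 stood at 35.1 and 31.8 copies per cell in Div8pos, against 16.3 and 17.7 in Div8neg and 1.50 and 2.18 in Div0. In sum the folate enzymes made up 0.136 and 0.133% of all mRNA in Div8pos, against 0.0905 and 0.0917% in Div8neg and 0.0425 and 0.0470% in Div0.

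Across the 3 late steps, 19 members rose in all of them relative to all genes (Ppat, Gart, Atic, Gmps, Prps1, Cad, Umps, Ctps, Tyms, Rrm2, Dck, Dut, Cmpk1, Nme1, Nme2, Shmt1, Shmt2, Mthfd1 and Mthfd2), beside 8.03% of all genes. Not all of these calls held with each library left out. Gart, Gmps, Cad, Ctps, Dck, Cmpk1, Nme2, Shmt1 and Shmt2 lost theirs in Div5 against Div3, and Atic and Dck theirs in Div8pos against Div8neg. Paics, Adsl, Impdh2 and Rrm1 rose in the steps to Div5 and Div8neg and were not called in the last. The calls of Paics, Adsl and Impdh2 in Div5 against Div3 did not hold with each library left out either. Pfas and Impdh1 were not called in Div5 against Div3 and rose in both later steps. The members lower in Div8pos than in Div8neg on this scale were Adss, Prps2 and Mthfd1l, none of which passed per cell. The largest relative rise came in the step from Div5 to Div8neg for 17 members, in Div8pos against Div8neg for 12, in Div1 against Div0 for Tk1 and Dtymk, and in Div5 against Div3 for Impdh2.

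Other genes of the pathway were counted by list. Among 16 tested folate genes outside the set, 10 rose and 1 fell in Div8pos against Div8neg relative to all genes, beside 36.7% and 35.3% of all genes, with a median of 0.44, and 7 rose and 2 fell in Div8neg against Div0, beside 35.3% and 35.7% of all genes. Per cell, 12 passed in Div8pos against Div8neg, each of them higher, beside 52.0% of all genes called higher. Slc19a1, the reduced folate carrier, rose in Div8pos against Div8neg (log2 fold change 1.36, SE 0.10, adjusted p = 4.26e-09), as did Ggh, which trims folate polyglutamates (log2 fold change 1.81, SE 0.22, adjusted p = 2.38e-06). Sfxn1, a mitochondrial serine carrier, rose by 1.07 in Div8neg against Div0 relative to all genes.

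Among 13 tested genes of serine and glycine supply, 9 rose and 1 fell in Div8pos against Div8neg, beside 36.7% and 35.3% of all genes (median 0.59). Per cell, 11 rose and 1 fell in this comparison, beside 52.0% of all genes called higher and 16.3% lower. Phgdh and Psat1 start serine synthesis. Phgdh stood at 154 and 128 copies per cell in Div8pos, against 46.1 and 48.9 in Div8neg, and Psat1 at 65.5 and 58.0 in Div8pos, against 15.8 and 17.3 in Div8neg. Psat1 rose relative to all genes (log2 fold change 1.35, SE 0.09, adjusted p = 6.74e-10), and Phgdh had risen by 1.42 in Div8neg against Div0. The neutral amino acid carrier Slc1a4 rose by 1.74 in Div8pos against Div8neg and its relative Slc1a5 by 0.72; in Div8neg against Div0, Slc1a5 fell by 0.24 relative to all genes and rose by 1.44 per cell.

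The lists of salvage genes, which reuse finished bases and nucleosides, and of breakdown genes held both risers and fallers. Of 20 tested purine salvage and breakdown genes, 8 rose and 10 fell in Div8pos against Div8neg relative to all genes (median -0.08), and of 11 pyrimidine salvage and breakdown genes 2 rose and 6 fell (median -0.25), beside 36.7% and 35.3% of all genes. The share of these purine genes that rose is near that of all genes, and in both lists more genes fell than rose. Per cell, 9 purine genes rose and 6 fell, and 3 pyrimidine genes rose and 2 fell, beside 52.0% and 16.3% of all genes. Ada, adenosine deaminase, stood at 53.8 and 38.3 copies per cell in Div8pos, 7.53 and 9.03 in Div8neg and 0.547 and 0.735 in Div0 and rose 3.79-fold in Div8pos against Div8neg relative to all genes (adjusted p = 6.89e-11). Uck2, the uridine-cytidine kinase, rose by 1.00 and its relative Uckl1 fell by 1.99 on the log2 scale. Dguok and Tk2, the mitochondrial deoxynucleoside kinases, fell 2.63-fold and 6.55-fold in the same comparison, Tk2 to 0.814 and 0.823 copies per cell in Div8pos, against 3.78 and 3.53 in Div8neg. Rrm2b, the p53-linked small reductase subunit, stood at 15.6 ± 1.95 CPM in Div8pos, 22.7 ± 0.286 in Div8neg and 40.5 ± 2.00 in Div0 (SD, n = 2 each) and fell in Div8neg against Div0 relative to all genes (log2 fold change -0.84, SE 0.09, adjusted p = 8.11e-07), while per cell it rose by 0.76.

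Adssl1, a relative of Adss known mainly from muscle, stood at 0.511 and 0.711 copies per cell in Div0, 3.48 and 3.95 in Div5, 5.71 and 6.57 in Div8neg and 1.69 and 1.55 in Div8pos. It rose in Div5 against Div3 (log2 fold change 1.04, SE 0.11, adjusted p = 1.97e-05) and fell 5.53-fold in Div8pos against Div8neg (adjusted p = 5.09e-11), per cell by 1.86 on the log2 scale (adjusted p = 5.05e-12). Ampd3, an AMP deaminase, was 5.30-fold lower in Div8neg than in Div0 relative to all genes (adjusted p = 2.27e-09).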

How the data were processed

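The deposited tables hold gene counts over exons of UCSC known genes (whole read counts by Entrez ID, not normalized), spike-in counts with their RPM and FPKM, and mRNA copies per cell, a unit the authors' readme names without saying how it was made. From the values, the deposited copies are, in each of the 12 libraries, gene FPKM times 1 factor, obtained by dividing the ERCC molecules listed per cell by the total FPKM of all ERCC RNAs. These FPKM values are the authors', per the file headers. Libraries were stranded mRNA libraries with paired-end reads, per the labels' protocols; the submitters' processing notes name mm9, Picard and R 3.2.2, and neither the aligner nor the counter, nor whether counting used strand, is named there.

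From these, counts were tested with edgeR 4.0.16 (filterByExpr, TMM factors, quasi-likelihood test, group means, all 12 libraries) and log2(copies per cell + 0.1) with limma 3.58.1 (trend), both in R 4.3.3, with Benjamini-Hochberg adjustment over 12049 genes; SE in edgeR is the log2 fold change over the root of F. Rows without a symbol (90) hold at most 0.094% of counts and were kept by Entrez ID. Both tests were tried on simulated data. The simulation gave every gene the same spread and changed only a small part of the genes. It could therefore not check the tests where most genes change, as in the late comparisons here. It also used the same scaling to copies for every library and no host differences, so it could not check errors in the spike-in factors. Alternatives were DESeq2 1.42.0, other scalings, pseudocounts of 1 and 0.01, no filter, spike-in scaling in edgeR, the 2 groups compared alone, host as a block and each library left out. The members and all gene lists were chosen with earlier results of these data known; all members are named, and from each list of other genes those named are among up to 2 called genes per direction with the largest log2 fold change in Div5 against Div3, Div8pos against Div8neg or Div8neg against Div0, with a mean of at least 10 CPM in the higher group. Hosts pair the libraries since cells of 1 number came from 1 animal; over 15 pairs of groups the correlation of deviations was -0.01 to 0.399 (median 0.172). Whether the 2 hosts received cells of separate donors is not stated. Promoter windows are from RefSeq on GRCm38.p6, another build than the counts. 5 members (Ppat, Paics, Gmps, Cad and Tk1) overlap another gene with counts, so a part of their reads is uncertain. Intervals were not computed, as each value has 2 libraries.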

Additional observations from a re-analysis of the deposited data

How the results depend on the processing

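No member that was called reversed its direction under any alternative run. Relative to all genes, 1 member was called in Div3 against Div1 by DESeq2, beside 1.50% of all genes higher and 0.979% lower. Per cell, with limma, 0 were called in Div3 against Div1 with a pseudocount of 1 or with no filter (2 and 1 with an unadjusted p under 0.05). Of all genes, 0.0498% were higher and 0.183% lower with that pseudocount, and 0.00% either way with no filter. In Div5 against Div3 with no filter, 0 members were called, where 16436 genes were tested and 30 members had an unadjusted p under 0.05. There 1.36% of all genes were called higher and 0.0243% lower. With spike-in scaling, edgeR called 1 and 30 members in these steps, beside 0.349% and 45.2% of all genes higher and 0.390% and 0.398% lower. The cause was not tested. With each library left out in turn, the members called relative to all genes numbered 4 to 6, 1 to 2, 14 to 25, 28 to 30 and 23 to 25 in the 5 successive steps, and 30 and 29 to 30 in Div8neg and Div8pos against Div0; per cell they numbered 3 to 31, 0 to 1, 0 to 31, 23 to 31 and 21 to 29, and 31 in both comparisons with Div0. With host as a replicate block, the counts in the 5 steps were 7, 2, 26, 30 and 26 relative to all genes and 31, 1, 30, 30 and 29 per cell, and the block changed no call of a called member. Without Nme2, the most abundant member, the summed share was 0.287%, 0.295%, 0.293%, 0.362%, 0.518% and 0.691% from Div0 to Div8pos, and the sum in copies 259 in Div5, 519.7 in Div8neg and 1127 in Div8pos. Among the values given for members that were not called, Rrm1 in Div8pos against Div8neg turned to -0.042 with library totals, and the per-cell change of Impdh1 in Div1 against Div0 ranged from -0.56 to 0.025 with each library left out, the last without the Div1 library of host 196. With 2 libraries per group, small changes cannot be told from the spread between hosts, and per-cell values move with the spike-in counts, 113723 to 683173 per library, which were lowest in Div8pos.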

Other observations

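A further list held genes of the methionine cycle, which takes up one-carbon units, and of polyamine synthesis. Of its 14 genes, 8 rose and 4 fell in Div8pos against Div8neg relative to all genes, beside 36.7% and 35.3% of all genes. On the same scale 11 rose and 1 fell in Div8neg against Div0, beside 35.3% and 35.7% of all genes. Odc1, the rate-limiting ornithine decarboxylase, stood at 143 and 123 copies per cell in Div8pos, 31.7 and 35.4 in Div8neg and 4.09 and 5.29 in Div0, and Srm, spermidine synthase, at 172 and 149.8 in Div8pos, 31.7 and 36.8 in Div8neg and 3.97 and 5.84 in Div0. In Div8pos against Div8neg both rose relative to all genes (Odc1 log2 fold change 1.44, SE 0.07, adjusted p = 3.27e-11; Srm log2 fold change 1.69, SE 0.10, adjusted p = 3.82e-10; edgeR's quasi-likelihood test), while Sms, spermine synthase, fell by 0.63 on the log2 scale (adjusted p = 5.46e-06); per cell Sms stood at 9.86 and 7.89 copies in Div8pos, against 9.48 and 9.17 in Div8neg.

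Of 8 tested nucleoside and nucleotide carriers, 2 rose and 5 fell in Div8pos against Div8neg relative to all genes, beside 36.7% and 35.3% of all genes. Slc28a2, a concentrative purine nucleoside carrier, stood at 1.90 and 1.45 copies per cell in Div8pos, 7.25 and 7.61 in Div8neg and 6.03 and 6.75 in Div0 and was 6.49-fold lower in Div8pos than in Div8neg relative to all genes (adjusted p = 3.58e-13). Ak7, an adenylate kinase known from cilia and listed among other nucleotide kinases, had 3.23 and 2.63 copies per cell in Div8pos, against 0.0227 and 0.0379 in Div8neg. Its fold in this comparison relative to all genes was 65.8. The size of this fold is uncertain, since Ak7 had 5 and 7 counts in Div8neg, against 384 and 319 in Div8pos. No library outside Div8pos had more than 13 counts of Ak7. The gene thus passed the filter on low counts only through Div8pos, and its test is not taken as support.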
